A study of Mus musculus with 4 samples.

Results

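RNA polymerase II (Pol II) occupancy was examined at 39 genes of DNA damage sensing and repair, chosen by name, among 21938 protein-coding genes of mm10. The measurement was Pol II chromatin immunoprecipitation sequencing of MNase-digested chromatin from flow-sorted mouse brain endothelial cells (ECs), given as a list of called peaks for each of 4 libraries. A gene was counted as having a promoter peak where a peak overlapped the 1500 bp to either side of one of its transcription start sites (TSS), and as having a gene-body peak where a peak overlapped the remainder of the gene.

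The 2 old WT Cre libraries came from mice aged 20 to 23 mo that carried the tamoxifen-inducible endothelial driver CDH5-CreERT2 (genotype CdH5CRE in the labels) without a floxed Klf4 allele. The 2 young EC-K4KO libraries (genotype ECK4KO in the labels) came from mice aged 4 to 6 mo in which the same driver, active in ECs throughout the body, was crossed to Klf4-flox to delete Klf4, a zinc-finger transcription factor. Both groups were C57BL/6J and received tamoxifen for 5 days at 8 wk of age. The groups thus differ in both genotype and age, whose effects cannot be told apart. Below, the 2 old WT Cre libraries (replicates 1 and 2) are called Cre1 and Cre2 and the 2 young EC-K4KO libraries (replicates 1 and 2) KO1 and KO2, and runs of 4 values follow that order. Young WT Cre and old EC-K4KO Pol II libraries were not analysed here. The study's methods call the replicates biological, and the labels do not tie libraries to animals.

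Cells meet DNA damage with a sensing layer and several repair routes. Sensor complexes at broken or stalled DNA activate large kinases of the ATM, ATR and DNA-PK family, which act on checkpoint kinases. Strand breaks are rejoined by homologous recombination or end joining, damaged bases are cut out by base excision repair, bulky lesions by nucleotide excision repair and copying errors by mismatch repair. Pol II at a promoter reports recruitment to the gene, and a called peak gives no measure of repair activity.

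The libraries held between 22705175 and 65734178 fragments and between 35638 and 235591 peaks. KO2 stood apart, with the fewest fragments and the most peaks, and each result that rests on it is given with the other libraries beside it. The absence of a peak means that none was called at that depth. At Klf4 itself no promoter peak was called in Cre1 or Cre2 and 1 was called in each of KO1 and KO2, with fold enrichments of 4.20 and 4.17. A promoter peak does not test for the deletion, so the genotype labels were not checked by it. Of 12 endothelial marker genes, 5 and 5 had a promoter peak in Cre1 and Cre2 and 0 and 6 in KO1 and KO2. These are 41.7%, 41.7%, 0% and 50%, against 32.0%, 32.4%, 12.9% and 78.6% of length-matched genes, so the endothelial markers lay above that share in Cre1 and Cre2 and below it in KO1 and KO2. Cdh5, Kdr and Flt1 had one in 3 libraries, whereas Pecam1, Tek, Slco1a4 and Esam had none in any library. Among markers of other cell types, promoter peaks were called in the 4 libraries for 2, 1, 2 and 5 of 7 mural genes (length-matched shares 27.8%, 28.2%, 12.7% and 72.9%) and for 2, 0, 0 and 4 of 6 microglial genes (25.6%, 24.7%, 11.2% and 67%). The counts were 2, 1, 0 and 3 of 5 astrocyte genes (30.7%, 31.5%, 12.6% and 77.1%), 1, 1, 0 and 4 of 5 oligodendrocyte genes (25.8%, 24.6%, 10.6% and 69.4%) and 0, 1, 1 and 3 of 5 neuronal genes (31.8%, 31.4%, 14.7% and 76.6%). The part of other cell types in the results was not tested.

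The promoters of Lig1, Parp2 and Terf2 are shown first because these 3 genes had promoter peaks in the most libraries, with ties broken by the least significant of a gene's leading peaks (the smallest −log10 q over its libraries). Lig1 joins nicks in DNA at the end of replication and excision repair, Parp2 builds poly(ADP-ribose) at strand breaks, and Terf2 binds telomeric repeats and keeps chromosome ends from being treated as breaks. The sequences come from RefSeq (GRCm38.p6), run from 250 bp before to 50 bp after a TSS in the direction of the gene, and lie at chr7:13278576-13278875 on the plus strand for Lig1, chr14:50807666-50807965 on the plus strand for Parp2 and chr8:107096496-107096795 on the minus strand for Terf2. Capitals mark matches to the letters GGGCGG (KLF/Sp) or CCAAT (NF-Y) on either strand.
Lig1: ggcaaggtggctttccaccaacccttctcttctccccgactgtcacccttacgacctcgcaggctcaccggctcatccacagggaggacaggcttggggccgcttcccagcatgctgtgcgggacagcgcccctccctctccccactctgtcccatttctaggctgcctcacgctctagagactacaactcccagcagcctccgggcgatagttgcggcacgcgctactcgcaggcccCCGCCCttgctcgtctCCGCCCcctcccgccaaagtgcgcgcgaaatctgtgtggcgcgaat
Parp2: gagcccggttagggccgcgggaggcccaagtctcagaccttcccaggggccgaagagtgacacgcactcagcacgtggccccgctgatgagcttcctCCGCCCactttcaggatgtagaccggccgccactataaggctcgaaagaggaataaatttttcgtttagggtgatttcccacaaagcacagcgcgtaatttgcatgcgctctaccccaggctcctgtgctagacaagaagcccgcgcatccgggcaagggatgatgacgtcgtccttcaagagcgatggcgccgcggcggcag
Terf2: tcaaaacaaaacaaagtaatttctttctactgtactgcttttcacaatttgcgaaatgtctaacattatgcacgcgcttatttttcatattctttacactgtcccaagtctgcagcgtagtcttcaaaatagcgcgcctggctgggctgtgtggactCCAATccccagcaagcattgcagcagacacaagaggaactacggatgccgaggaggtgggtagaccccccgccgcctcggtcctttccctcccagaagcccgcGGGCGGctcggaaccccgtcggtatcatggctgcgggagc
The Lig1 window was overlapped by a peak in all 4 libraries and held 2 KLF/Sp matches, both on the complementary strand. The Parp2 window was overlapped in 3 libraries and held 1 KLF/Sp match, but all 3 summits lay upstream of it and the Cre1 and KO1 peaks ended just inside it, at positions 50807675 and 50807674. The Terf2 window was overlapped by a peak in KO2 alone, since the Terf2 peaks of Cre1 and Cre2 lay downstream of it, inside the gene. It held 1 match to each motif.

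In every library a larger share of the 39 repair genes than of all protein-coding genes had a promoter peak. The counts were 18 of 39 (46.2%, 95% exact binomial interval 30.1 to 62.8) in Cre1 and 14 (35.9%, 21.2 to 52.8) in Cre2, against 25.6% and 24.5% of all genes. They were 8 (20.5%, 9.30 to 36.5) in KO1 and 32 (82.1%, 66.5 to 92.5) in KO2, against 10.6% and 67.5% of all genes. The order of the libraries followed that of all genes, and KO1 and KO2 lay on either side of the old WT Cre pair, so the groups overlapped. The group means were 41.0% ± 7.25 (SD, n = 2) for old WT Cre and 51.3% ± 43.5 (SD, n = 2) for young EC-K4KO, a difference smaller than the spread within young EC-K4KO. The intervals are of the Clopper-Pearson kind and cover counting error only.

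The repair genes were longer than most, with a median of 34665 bp against 17425 bp, so each was set beside the 500 protein-coding genes nearest to it in length. Those length-matched genes had a promoter peak in 28.7% and 28.6% of cases in Cre1 and Cre2 and in 12.04% and 74.0% in KO1 and KO2. The repair genes exceeded them by 17.5 and 7.31 percentage points in old WT Cre and by 8.48 and 8.01 in young EC-K4KO. The mean excess was 12.4 ± 7.18 (SD, n = 2) in old WT Cre and 8.24 ± 0.330 (SD, n = 2) in young EC-K4KO, and the group ranges overlapped. In every library but Cre1, the length-matched share lay inside the interval of the repair genes. Promoter base composition also differed, with a median GC content of 56.8% within 500 bp of the TSS against 54.9%, and a median CpG ratio (observed over expected) of 0.788 against 0.539. Against genes near in length and in the same band of promoter GC content the excess was 12.7 and 3.21 percentage points in old WT Cre, 7.70 in KO1 and -1.2 in KO2. The excess was thus smaller under this matching in each library, and its sign changed in KO2.

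**Figure D1:**
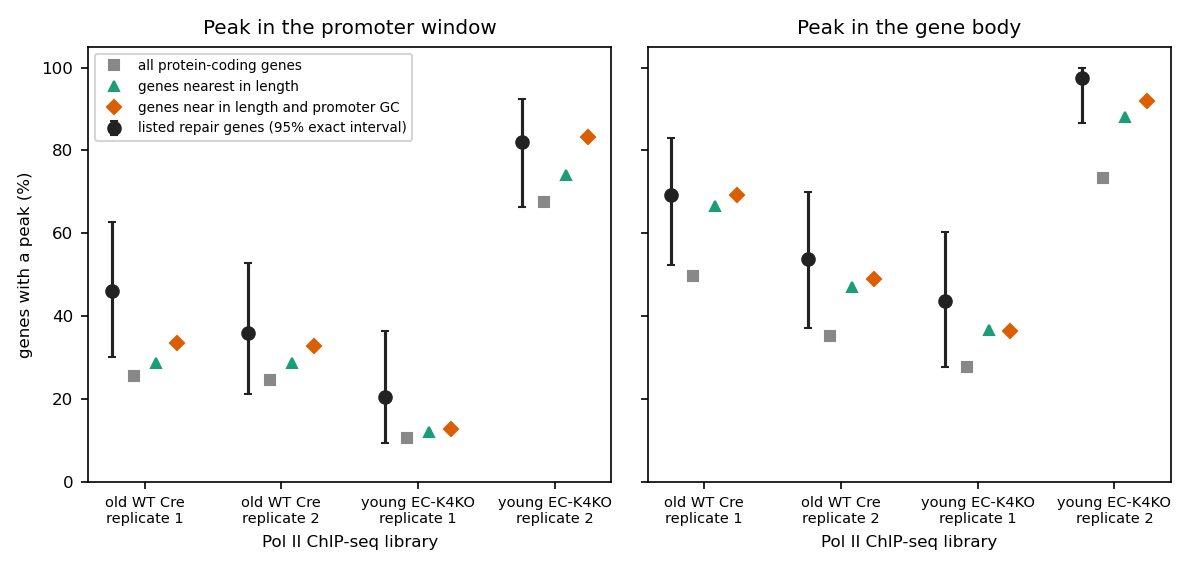
Share of genes with a peak (percent) in the promoter window (left) and the gene body (right) in each of the 4 libraries, for the 39 repair genes (black circles, bars are 95% exact binomial intervals), all protein-coding genes (grey squares), the 500 genes nearest in length (green triangles) and genes near in length and promoter GC (orange diamonds). The repair genes lie above all protein-coding genes in each library, and the promoter share runs from 20.5% in KO1 to 82.1% in KO2.

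Promoter peaks were called in 2 libraries at 14 repair genes (35.9%, against 25.2% of all genes), in 3 at 9 (23.1% against 10.9%) and in 1 at 13 (33.3% against 36.2%). Lig1 was the single repair gene with a promoter peak in all 4 libraries (2.22% of all genes had one). A promoter peak in Cre1 and Cre2 was present at 9 repair genes (10.1% of all genes) and in KO1 and KO2 at 7 (9.11% of all genes). At least 3 libraries had a peak at 10 genes (13.1% of all genes), namely Atm, Atr, Chek1, Ogg1, Polb, Parp2, Lig1, Xpa, Ercc4 and Terf2. Fancd2 and Lig3 had no promoter peak in any library (25.4% of all genes). Fanca and Ercc6 had one in Cre1 and Cre2 and neither of KO1 and KO2 (0.784% of all genes), and Rad50, Xrcc5 and Xrcc6 the opposite (3.09% of all genes). With a window of 3000 bp Fanca, Ercc6 and Rad50 no longer had these patterns, and Lig3 no longer lacked a promoter peak in every library. KO2 alone gave the promoter peak at 10 genes (30.6% of all genes), which were Prkdc, Mre11a, Nbn, Wrn, Blm, Xrcc4, Xrcc1, Xpc, Ercc1 and Ercc2. Without that library, 8 genes had a peak in Cre1 and Cre2 and not in KO1 (7.79% of all genes), and 4 had one in KO1 but in neither of Cre1 and Cre2 (4.02% of all genes).

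**Figure D2:**
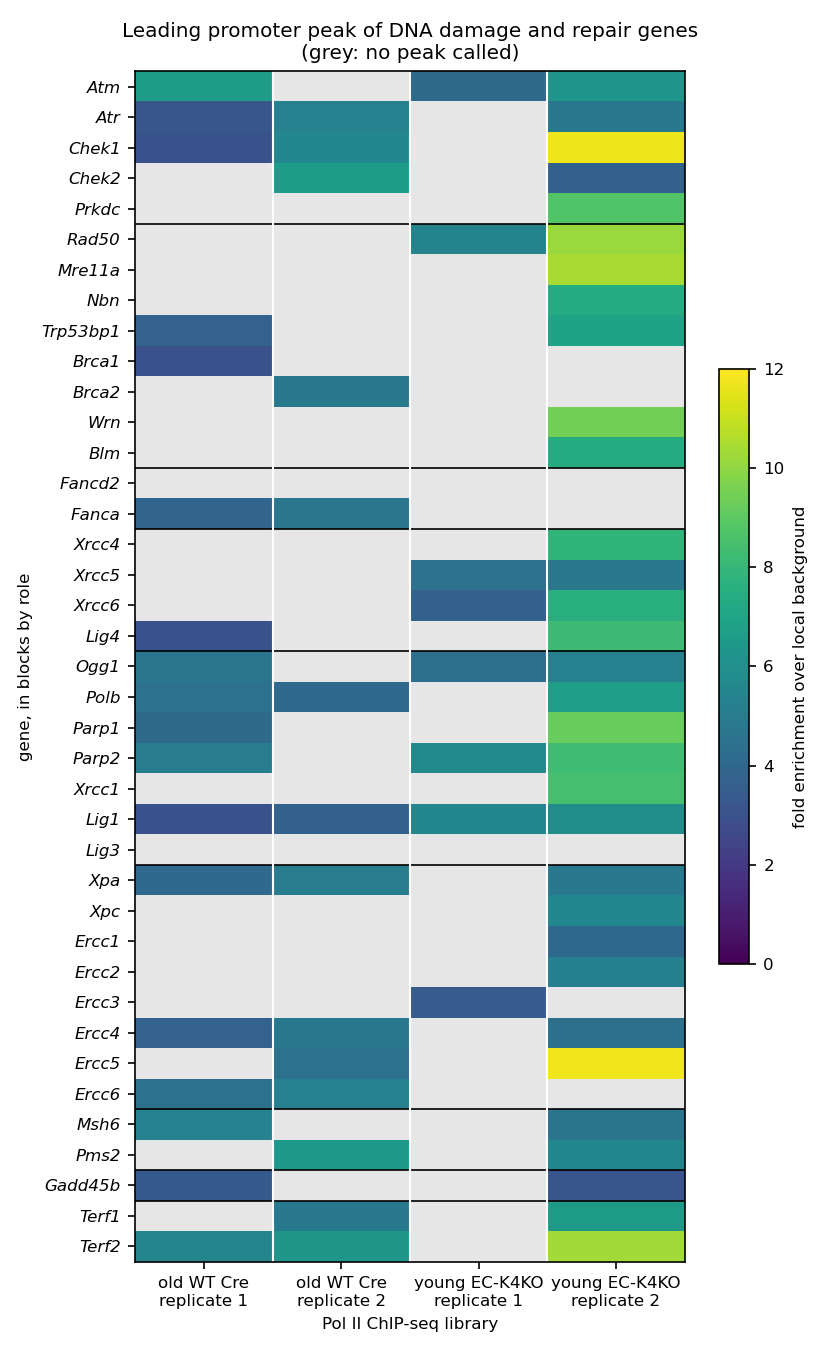
Fold enrichment over local background (colour scale) of the promoter peak with the largest fold enrichment for each of the 39 repair genes, in blocks by role, in the 4 libraries, with grey where no peak was called. Lig1 is coloured in every library, Fancd2 and Lig3 in none, and the KO2 column holds the most coloured cells, with 32 genes.

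Peak height is given below as fold enrichment, the fragments at the summit over the background around it in that library. It is not scaled between libraries, and the summit position is measured from the nearest TSS of the same gene, negative upstream. Over all genes with a promoter peak the median fold enrichment was 3.94 and 5.0 in Cre1 and Cre2 and 4.16 and 5.81 in KO1 and KO2. Over the repair genes it was 4.0 and 4.95, and 4.39 and 6.85. The repair genes stood furthest from all genes in KO2.

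Among the damage and checkpoint kinases, promoter peaks were present at 3, 3, 1 and 5 of 5 genes in the 4 libraries, where 25.6%, 24.5%, 10.6% and 67.5% of all genes had one. Atm, the kinase activated at double-strand breaks, had fold enrichments of 6.65 in Cre1, 4.14 in KO1 and 6.28 in KO2, with none called in Cre2. The Cre1 summit lay 1405 bp downstream in an Atm intron and those of KO1 and KO2 upstream, at -915 and -201 bp, nearer to the start of Npat, which is transcribed in the other direction 307 bp away. Cre1 had a second, upstream peak of 4.13 that overlapped the KO1 peak, with summits 203 bp apart, whereas the KO1 and KO2 peaks did not overlap, with summits 714 bp apart. Atr, the kinase of stalled replication, had 3.19 and 5.22 in Cre1 and Cre2 and 4.83 in KO2, all with summits in an intron between 104 and 504 bp downstream. Chek1, the checkpoint kinase that ATR phosphorylates, had 3.0 and 5.59 in old WT Cre and 11.7 in KO2. The Chek1 peak of KO2 overlapped that of Cre2, and the −log10 q was 21.4 in KO2 and 6.17 in Cre2. Cre1 had 2 Chek1 peaks of 3.0, each with a −log10 q of 2.89, and both lay apart from those of Cre2 and KO2. Neither Atr nor Chek1 had a promoter peak in KO1. Chek2, the kinase downstream of ATM, had peaks in Cre2 and KO2, and Prkdc, which encodes the catalytic subunit of DNA-PK, had one in KO2 on the side of its neighbour Mcm4. The Chek2 summit of KO2 lay nearer to a start of its neighbour Hscb.

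Of the 8 genes of break sensing and homologous recombination, 2, 1, 1 and 6 had a promoter peak, beside 25.6%, 24.5%, 10.6% and 67.5% of all genes. Rad50, the structural subunit of the complex that first binds a broken end, had fold enrichments of 5.39 and 10.2 in KO1 and KO2 and no promoter peak in Cre1 or Cre2. Both had a Rad50 peak at the same intron position (chr11:53706725-53706893 in KO1), 484 bp downstream of the TSS in KO1 and 7 bp from there in KO2, and KO2 had its tallest peak 43 bp upstream of the TSS. The partners of Rad50 in that complex, Mre11a and Nbn, had a peak in KO2 alone, at 10.4 and 7.40. The Mre11a summit lay nearer to a start of Ankrd49, its neighbour on the opposite strand, so that peak cannot be assigned to Mre11a. Promoter peaks at the 3 subunit genes were therefore called together in 1 library only. Brca1 had a single peak of 3.0 in Cre1, and Brca2, which loads the recombinase, a single peak of 4.85 in Cre2. Wrn and Blm, both RecQ helicases, had peaks in KO2 alone, and Trp53bp1, which steers breaks towards end joining, had one in Cre1 and one 1672 bp upstream in KO2.

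Crosslink repair was represented by Fanca and Fancd2, which act in the Fanconi anaemia pathway. Fanca, a subunit of the complex that ubiquitinates FANCD2, had fold enrichments of 3.91 and 4.75 in Cre1 and Cre2 and no promoter peak in KO1 or KO2. The peaks overlapped, at chr8:123318236-123318495 and chr8:123318307-123318490, with summits in an intron 184 and 175 bp downstream of the TSS. Fancd2 had no promoter peak in any library, and its TSS lies 30 bp from that of Emc3. It had a gene-body peak in all 4.

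Of the 4 end-joining genes, 1, 0, 2 and 4 had a promoter peak (25.6%, 24.5%, 10.6% and 67.5% of all genes). Xrcc5 and Xrcc6, which encode the paired Ku proteins that cap broken ends, were both called in KO1 and KO2 but in neither of Cre1 and Cre2. The fold enrichments were 4.46 and 4.79 for Xrcc5 and 3.72 and 7.54 for Xrcc6. The Xrcc5 peaks of the 2 libraries did not overlap, with summits 357 and 60 bp downstream, whereas the Xrcc6 peaks overlapped, with summits 3 and 209 bp downstream. Of these 4 peaks, 3 had −log10 q below 5, and at a q of 1e-05 Xrcc5 had a promoter peak in no library and Xrcc6 in KO2 alone. Xrcc4 had a peak in KO2 alone, and its ligase partner Lig4 in Cre1 and KO2. The Xrcc4 summit lay nearer to a start of its neighbour Tmem167.

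Of the 7 genes of base excision and single-strand break repair, 5, 2, 3 and 6 had a promoter peak, against 25.6%, 24.5%, 10.6% and 67.5% of all genes. Ogg1, the glycosylase that removes oxidised guanine, had fold enrichments of 4.70 in Cre1 and 4.33 and 5.26 in KO1 and KO2. The 2 young EC-K4KO summits lay 18 bp apart, at -58 and -40 bp, and that of Cre1 at -509 bp. Parp2 had 5.07 in Cre1 and 5.70 and 8.29 in KO1 and KO2, with all 3 summits upstream between -294 and -248 bp. The 3 Parp2 peaks overlapped one another and their summits spanned 46 bp. Polb, the polymerase that fills the repaired gap, had 4.51 and 4.10 in old WT Cre and 6.74 in KO2, with summits within 157 bp of the TSS. Parp1, the main sensor of strand breaks, was called in Cre1 and KO2, and the scaffold gene Xrcc1 in KO2 alone. Lig3, whose ligase works with XRCC1, had no promoter peak around any of its 6 TSS. With a window of 3000 bp it no longer lacked one in every library.

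Lig1 was the one gene for which fold enrichment could be compared between the groups. Its values were 3.0 and 3.73 in Cre1 and Cre2 and 5.51 and 5.93 in KO1 and KO2. Both young EC-K4KO values lay above both old WT Cre values, with means of 3.37 ± 0.512 and 5.72 ± 0.293 (SD, n = 2) and a difference of 2.35. The KO2 value comes from a peak at another place than the other values, as given below, so these figures mix places. The Cre1 and Cre2 peaks were weak, with −log10 q of 2.89 and 2.63, and did not pass a q of 1e-05, which those of KO1 and KO2 did. The exact two-sided permutation test over the 4 libraries gave p = 0.33, the smallest value that 2 libraries against 2 allow. Of the 487 genes with a promoter peak in all libraries, 16.2% were higher in KO1 and KO2 and 3.49% in Cre1 and Cre2. The peaks that all 4 libraries shared had their summits in a Lig1 intron upstream of an internal TSS, which the KO1 peak spanned. They reached into the printed sequence and were nearer to a start of Zswim9, the neighbour on the opposite strand. In KO2 that shared peak had a fold enrichment of 5.13, and the tallest peak, at 5.93, lay 36 bp upstream of the first Lig1 TSS. A Pol II peak there cannot be assigned to Lig1 or to Zswim9.

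Promoter peaks were present at 3, 4, 1 and 6 of the 8 nucleotide excision repair genes and at 25.6%, 24.5%, 10.6% and 67.5% of all genes. Xpa, which verifies the lesion, had fold enrichments of 4.10 and 5.06 in Cre1 and Cre2 and 4.85 in KO2, and Ercc4, the nuclease that cuts on the upstream side, had 3.76 and 4.83 and 4.42 in the same libraries. For both genes the old WT Cre values lay on either side of that of KO2, and all summits lay downstream of the TSS. Ercc6, which clears Pol II stalled at lesions in transcribed genes, had 4.51 and 5.22 in Cre1 and Cre2 and no promoter peak in KO1 or KO2. These peaks, at chr14:32513579-32513779 and chr14:32513379-32513731, had summits in an intron 200 and 138 bp downstream, and both passed a q of 1e-05. Ercc5, the partner nuclease on the other side, had 4.47 in Cre2 and 11.8 in KO2, the largest fold enrichment of any repair promoter. Xpc, Ercc1 and Ercc2 were called in KO2 alone, and Ercc3, a helicase of TFIIH, in KO1 alone with a fold enrichment of 3.44.

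Of the mismatch repair genes, Msh6 had promoter peaks in Cre1 and KO2, and Pms2 in Cre2 and KO2. Both Pms2 summits lay nearer to a start of its neighbour Aimp2. Gadd45b, a stress-inducible gene, was called in Cre1 inside the gene and in KO2 at -1245 bp. Of the telomere genes, Terf1 was called in Cre2 and KO2. Terf2 had fold enrichments of 5.45 and 6.34 in Cre1 and Cre2, with summits 390 and 243 bp downstream in a coding exon, and 10.3 in KO2, 8 bp upstream of the TSS. In the same gene KO2 also had a peak of 5.55 over the place of the old WT Cre peaks, and KO1 had none.

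**Figure D3:**
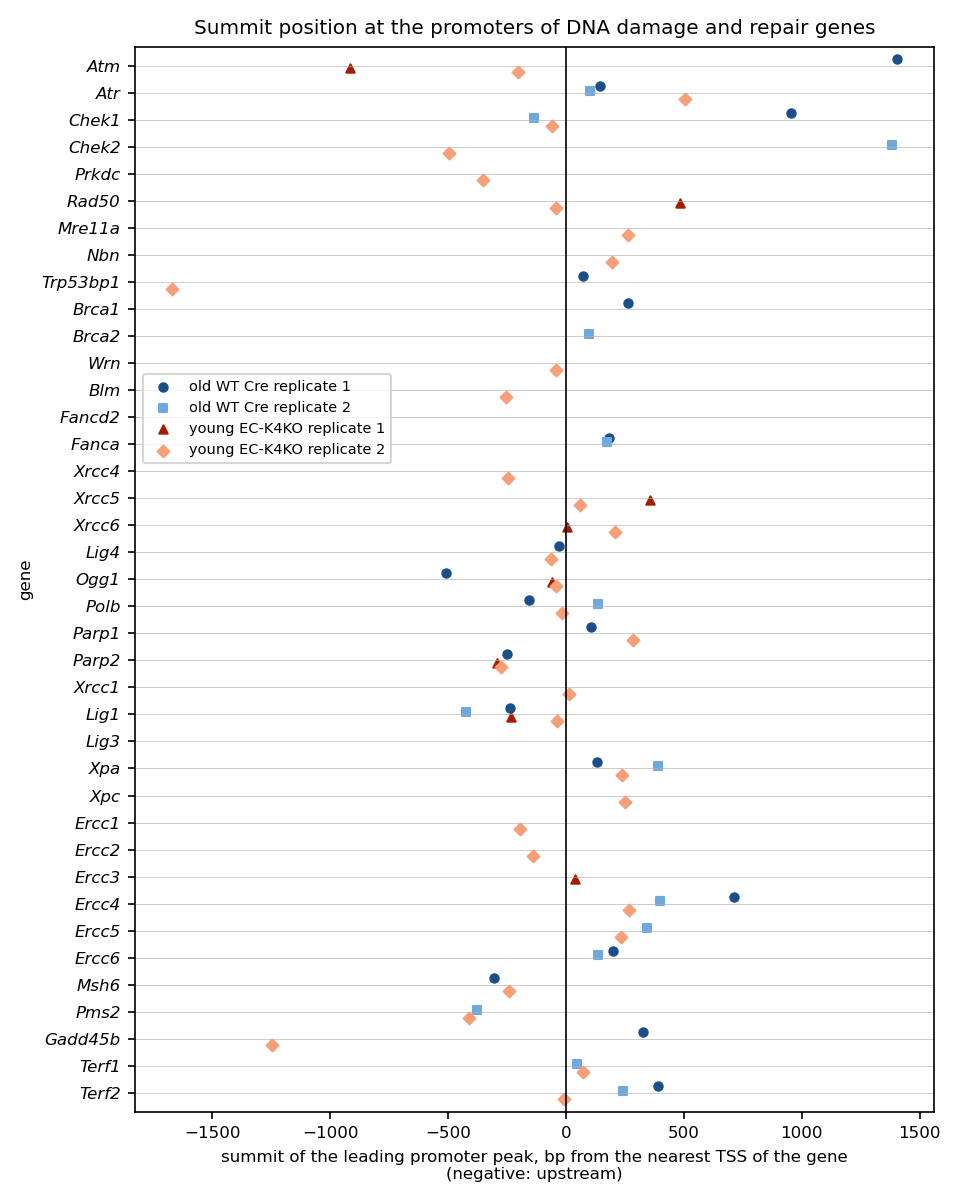
Position of the summit of the promoter peak with the largest fold enrichment, in bp from the nearest TSS of the gene (negative is upstream), for the 39 repair genes in the 4 libraries. Blue points are old WT Cre and red or orange points young EC-K4KO, and the Parp2 summits sit together upstream, between -294 and -248 bp.

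Summits of the repair genes lay close to the TSS. Within 500 bp of a TSS were 77.8% and 92.9% of the summits in Cre1 and Cre2 and 87.5% and 90.6% in KO1 and KO2, against 59.5%, 72.2%, 61.6% and 67.6% for all genes. In KO2, 12 of 32 summits lay downstream of the TSS, 37.5% against 62.5% of all genes. The corresponding values were 12 of 18 and 11 of 14 in old WT Cre, 66.7% and 78.6% against 63.9% and 67.5%. In KO1, 4 of 8 summits lay downstream, 50% against 56.2%. The low downstream share of KO2 was present in repair genes that share a promoter (4 of 12) and in those that do not (8 of 20, 40%), where all genes gave 50.02% and 64.9%. It rests on 1 library.

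Where 2 libraries both had a promoter peak at a gene, the peaks overlapped by at least 1 bp in 35 of 47 gene and library pairs (74.5%), against 65.8% over all genes. Overlap was found in 7 of 9 pairs within old WT Cre (77.8%, against 60.4% over all genes) and 5 of 7 within young EC-K4KO (71.4% against 66.4%). Between groups the repair genes fell below all genes for Cre1 with KO2, the pair with the most repair genes, at 8 of 15 (53.3% against 64.6%). They lay above all genes for Cre2 with KO2, at 10 of 11 (90.9% against 74.6%). The same held for Cre1 with KO1, at 4 of 4 (against 51.7%), and Cre2 with KO1, at 1 of 1 (against 54.7%). These pairs share genes and libraries and are not independent.

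A feature of the list that the choice of genes did not use was promoter sharing. At 14 of the 39 genes (35.9%) the promoter window held the TSS of another protein-coding gene, against 13.0% of all genes, and each of the 14 partners lay on the opposite strand. The closest pairs were Lig4 with Abhd13 at 21 bp, Fancd2 with Emc3 at 30 bp and Xpc with Lsm3 at 40 bp, and the farthest was Wrn with Purg at 798 bp. The others were Chek2 with Hscb, Prkdc with Mcm4, Mre11a with Ankrd49, Brca1 with Nbr1, Xrcc4 with Tmem167, Xrcc6 with Desi1, Xrcc1 with Pinlyp, Pms2 with Aimp2, Atm with Npat and Lig1 with Zswim9. Over all genes a shared promoter more often had a peak, at 34.0%, 37.2%, 15.8% and 83.7% against 24.4%, 22.6%, 9.85% and 65.1% for promoters of 1 gene, in the libraries in the order above. The repair genes did not follow this in old WT Cre. There 4 and 3 of the 14 sharing genes (28.6% and 21.4%) had a peak, against 14 and 11 of the 25 others (56% and 44%). In young EC-K4KO the counts were 3 and 12 of 14 (21.4% and 85.7%) against 5 and 20 of 25 (20% and 80%).

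Promoter sequences in RefSeq were matched for 30 of the 39 genes and searched on both strands for short motifs, with 16522 genes as the reference. The KLF/Sp letters GGGCGG were present at 21 of 30 (70% against 51.0% of all promoters) and the NF-Y letters CCAAT at 18 (60% against 42.1%). The E2F letters TTTCCCGC were found at 4, namely Brca2, Chek2, Msh6 and Xrcc6 (13.3% against 1.66%), and the variant TTTGGCGC at 0 (0.763% of all). The ETS letters CCGGAAGT were found at 3 (10% against 5.94%) and the CRE letters TGACGTCA at 1 (3.33% against 2.64%). None of these strings contains another, and these are matches of letters in a window of 300 bp and not sites of binding. No sequence was matched for Polb, Terf1, Fancd2, Nbn, Prkdc, Wrn, Xpc, Ercc3 and Rad50.

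Gene-body peaks were present at 27 of 39 repair genes (69.2%, 95% exact interval 52.4 to 83.0) in Cre1, 21 (53.8%, 37.2 to 69.9) in Cre2, 17 (43.6%, 27.8 to 60.4) in KO1 and 38 (97.4%, 86.5 to 99.9) in KO2. The shares over the 20587 genes with a body outside the promoter window were 49.7%, 35.1%, 27.7% and 73.3%. Among genes nearest in length the shares were 66.5%, 46.9%, 36.7% and 88.1%. The excess over length-matched genes was 2.68, 6.90, 6.90 and 9.35 percentage points, with means of 4.79 ± 2.98 (SD, n = 2) for old WT Cre and 8.12 ± 1.73 (SD, n = 2) for young EC-K4KO. With GC matching as well it was 0.0769, 4.87, 7.23 and 5.53, with means of 2.47 ± 3.39 and 6.38 ± 1.20 (SD, n = 2). All 4 length-matched shares lay inside the intervals of the repair genes. Per 100 kb of gene body the repair genes had 3.21, 1.41, 1.31 and 9.74 peaks, close to the 3.36, 1.55, 1.24 and 9.82 of all genes.

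A gene-body peak in all 4 libraries was present at 9 repair genes (16.9% of all genes), among them Prkdc, Wrn, Xrcc4, Fancd2 and Lig3. Prkdc, with a body of 202846 bp, had 7 and 1 peaks in Cre1 and Cre2 and 3 and 13 in KO1 and KO2. Wrn, with 146587 bp, had 4 and 1, and 3 and 16. Xrcc4, the longest at 314081 bp, had 1 and 2, and 2 and 9, fewer than Prkdc or Wrn in 3 of the 4 libraries. A gene-body peak was present in Cre1 and Cre2 at 19 genes (28.6% of all genes) and in KO1 and KO2 at 16 (26.4% of all genes). No repair gene lacked a gene-body peak in every library (22% of all genes did). None had one in Cre1 and Cre2 with none in KO1 and KO2 (0.534% of all genes). Pms2 was the single gene of the opposite kind (2.76% of all genes), and also the single gene with one in KO1 but not in Cre1 or Cre2 (3.55% of all genes).

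**Figure D4:**
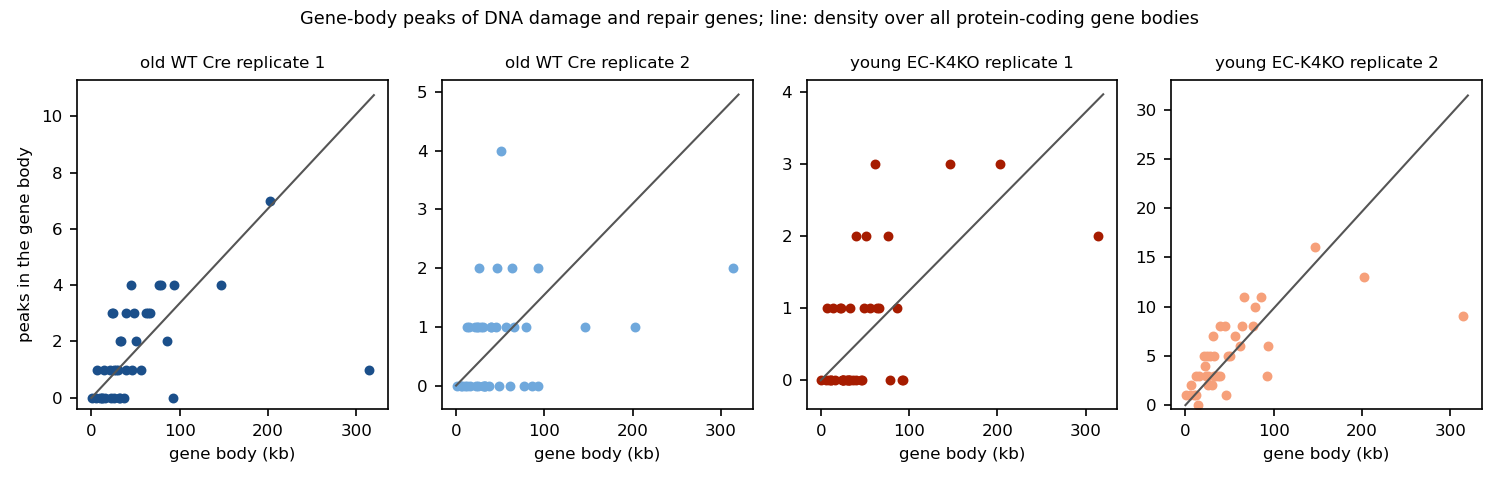
Number of gene-body peaks against gene-body length (kb) for the 39 repair genes (points), 1 panel per library with its own vertical scale, and the peak density of all protein-coding gene bodies (line). Points lie on both sides of the line in every panel, and Xrcc4, the longest body, lies below it in each.

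Merged where they overlapped, the peaks of all libraries formed 292 regions, of which 267 were present in 1 library (91.4%, against 89.6% over all gene bodies), 20 in 2 (6.85% against 8.74%), 5 in 3 (1.71% against 1.29%) and 0 in 4 (0.381% over all gene bodies). Cre1 and Cre2 shared 2 regions (0.685% against 2.42%) and KO1 and KO2 shared 7 (2.40% against 2.15%). Of the 5 regions in 3 libraries, 4 were in Cre1 and KO1 and KO2, namely 2 in Prkdc introns (chr16:15671175-15671807 and chr16:15744478-15744799), 1 in a Wrn intron (chr8:33263785-33264537) and 1 in a Fancd2 intron (chr6:113534978-113535460). The other was in an Xrcc6 intron (chr15:82004436-82004656), in Cre1 and Cre2 and KO2. It lies inside the annotated gene but upstream of the Xrcc6 TSS at position 82016369, nearest to the tallest promoter peaks of KO1 and KO2. Introns held 86.4%, 72.4%, 74.1% and 81.0% of the gene-body peaks, below the 91.9% of gene-body bases that are intronic.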

How the data were processed

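Pol II ChIP-seq peak lists of 4 libraries were analysed, 2 for each group. Per the study's methods, reads were trimmed, aligned to mm10 with Bowtie2 and freed of duplicates. The file headers name MACS 2.2.7.1, run by the authors on each library alone with no control library and a q-value cutoff of 0.01, keeping all duplicates in the file given to it. The study's methods name another release and default parameters, which differ from the headers in the q-value cutoff and in duplicates, and that could change pileups and q-values. Bowtie2 and MACS2 also stand in the submitters' processing notes. The deposited values are the pileup (coverage signal, in fragments over the summit), the fold enrichment (ratio to that library's local background) and the p-value and q-value as −log10. The authors did not scale these between libraries. Narrow peak and summit files hold the same peaks and were not used.

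Peaks were assigned to genes of the GENCODE M21 basic annotation with scipy 1.17.1, pandas 2.3.3 and numpy 2.4.6 under Python 3.11.15. A promoter is 1500 bp to either side of a TSS, overlap means at least 1 bp, and mitochondrial genes were left out. Each member was matched to the 500 genes nearest in length. The genes, the lists of 93 other repair genes and of cell type markers, and the tests were chosen with earlier results of these data known. Full values are given for genes with promoter peaks in at least 3 libraries, in both libraries of 1 group and neither of the other, or in none. On simulated data 910 of 910 planted promoter peaks and 828 of 828 planted gene-body peaks were recovered, 1072 of 1072 empty genes stayed empty, and the largest error of a matched share was 1.5 percentage points. Alternatives were a q of 1e-05, a minimum fold enrichment of 4, lists cut to 35638 peaks, windows of 3000 and 500 bp, summits in place of overlap, 200 genes nearest in length, GC matching, unshared promoters, autosomes and leaving out each library. Promoter sequences are from RefSeq. Figures were drawn with matplotlib 3.10.9.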

Additional observations from a re-analysis of the deposited data

How the results depend on the processing

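Of the values recomputed under the alternatives, 119 kept their size within the set margin, 44 moved and 1 changed sign. Promoter counts, given as 18, 14, 8 and 32 in the 4 libraries, moved at q of 1e-05 to 11, 8 and 3 in the first 3 libraries, with fold enrichment of at least 4 to 9 in Cre1, with lists of equal length to 10 in Cre1 and 15 in KO2, and over the 25 genes with unshared promoters to 5 and 20 in young EC-K4KO. Gene-body counts moved at q of 1e-05 to 9 in Cre2 and 5 in KO1, at fold enrichment of at least 4 to 11 in KO1, with equal lists to 24 in KO2, and over unshared promoters to 16, 13, 10 and 24. Fewer genes were tested in that last setting. Promoter shares of all genes fell too. At q of 1e-05 the repair genes had 28.2%, 20.5% and 7.69% in the first 3 libraries, against 15.1%, 13.4% and 3.31% of all genes. Cre1 had 23.1% against 11.7% at fold enrichment of at least 4, and 25.6% against 11.8% with equal lists. With equal lists KO2 had 38.5% against 27.7%. Unshared promoters gave 20% and 80% in KO1 and KO2, against 9.85% and 65.1%. Gene-body shares of all genes are not given for the alternatives.

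The 9 genes with promoter peaks in Cre1 and Cre2 became 4 at q of 1e-05, 4 at fold enrichment of at least 4, 5 with equal lists, 14 without Cre1 and 18 without Cre2. The 2 in old WT Cre alone (Fanca and Ercc6) became 1 (Ercc6) at fold enrichment of at least 4, 4 with equal lists (Fanca, Polb, Xpa and Ercc6), 0 with a window of 3000 bp, and 8 without KO2. The 7 in KO1 and KO2 became 3 at q of 1e-05, 3 with equal lists, 4 over unshared promoters, 8 without KO2 and 32 without KO1. The 3 in young EC-K4KO alone (Rad50, Xrcc5 and Xrcc6) became 6 without Cre1 and 13 without KO1, and were Rad50 and Lig1 at q of 1e-05, Rad50, Xrcc5 and Lig1 at fold enrichment of at least 4, and Rad50 and Xrcc6 with equal lists. At q of 1e-05, at fold enrichment of at least 4 or with equal lists, no gene had a promoter peak in all libraries. Leaving out a library reduces its group to the other one, and 14, 18, 8 and 32 are the counts of that library. Of all genes, 24.5%, 25.6%, 10.6% and 67.5% had a promoter peak there. The 8 genes in old WT Cre alone without KO2 stand beside 7.79% of all genes. For the remaining changed counts no share of all genes is given.

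The promoter excess over length-matched genes in old WT Cre, 12.4 percentage points, became 23.7 over unshared promoters, 7.94 with GC matching, 8.06 at q of 1e-05, 7.31 without Cre1 and 17.5 without Cre2. In young EC-K4KO, where it was 8.24 with an SD of 0.330, it became 5.51 at q of 1e-05, 8.75 at fold enrichment of at least 4, 6.84 with equal lists, 10.9 with a window of 500 bp, 7.39 by summits, 7.63 with 200 genes, 3.25 with GC matching, 9.20 over unshared promoters and 7.19 on autosomes. The gene-body excess in old WT Cre, 4.79, changed sign to -1.07 at q of 1e-05, and became 2.47 with GC matching, 2.09 at fold enrichment of at least 4, 2.62 on autosomes and 2.68 without Cre2. In young EC-K4KO, 8.12, it became 5.47 at q of 1e-05, 13.3 with equal lists and 6.38 with GC matching. The causes were not tested. The Lig1 difference of 2.35 ran from 1.99 to 2.71 on leaving out each replicate, and could not be computed where a library lost its Lig1 peak or over unshared promoters. No paired analysis was possible because no label ties a library of one group to one of the other beyond its replicate number. The smallest pileup called was 13, 8, 9 and 7 fragments, so weaker occupancy was not detectable in these lists.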

Other observations

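Repair genes outside the list were described in the same way. Of 93 such genes, 28 and 24 had a promoter peak in Cre1 and Cre2 (30.1% and 25.8%, against 25.8% and 24.9% of length-matched genes) and 15 and 75 in KO1 and KO2 (16.1% and 80.6%, against 10.7% and 68.7%). Among them, 3 had one in all 4 libraries (2.22% of all genes). Rpa1, which coats single-stranded DNA, had fold enrichments of 4.13 and 5.58 in Cre1 and Cre2, 5.10 in KO1 and 9.16 in KO2. Gadd45a, a stress-inducible relative of Gadd45b, had 3.76 and 5.97, and 4.78 and 6.48. Tinf2, a telomere protein that bridges Terf1 and Terf2, had 4.88 and 6.71, and 3.95 and 5.36. For each of these genes the ranges of the groups overlapped. No gene of the 93 had a promoter peak in Cre1 and Cre2 but in neither of KO1 and KO2 (0.784% of all genes), and 8 had the opposite pattern (3.09% of all genes), among them Rad51c and Palb2 of homologous recombination, Pcna, the sliding clamp, and Msh3 of mismatch repair.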
